A study of Mus musculus with 2 samples.

Results

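The stretch of mouse chromosome 1 from 3.6 to 5.4 Mb (GRCm38) holds *Sox17* and a pair of insulation minima that bracket it, and its contacts were compared between wild-type and *Lin28a* knockout embryonic stem (ES) cells by Hi-C. The members were the genes *Sox17*, *Rp1*, *Mrpl15*, *Lypla1* and *Tcea1*, and their data were the read pairs on 1 chromosome, at least 5 kb apart, with an end in the stretch. The wild-type library held 94283 such pairs of 3255028 and the knockout library 73100 of 2509097, and the 5 promoters stood among 508 protein-coding promoters of chromosome 1 with a value. The position was chosen because insulation on its lower side had differed between these same libraries, so the difference there is a description, and no test was made.

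In Hi-C, DNA that is held together by cross-links is cut, ligated and read from both ends, so that each read pair is a record of 1 contact. Each genotype, wild-type and *Lin28a* knockout (*Lin28a*-/-), was represented by 1 library of ES cells, both kept on gelatin with mouse embryonic fibroblast (MEF) feeders in LIF/2i medium, which holds ES cells in the pluripotent state, for 2 days. *Lin28a* encodes an RNA-binding protein. The study made knockout clones with CRISPR/Cas9 aimed at the second exon of the gene, and the source of the knockout cells used for Hi-C, the number of clones and the carry-over of feeders are not given in the sources used here. The labels speak of 2 replicates a group and the pairs name none. Read names showed 2 sequencing runs a library, which may or may not be those replicates, and each group was taken as 1 library. Further, *Lin28a* lies on another chromosome than the one analysed, so the genotype was not checked here. The lists analysed were partial and were used from 3 to 90.75 Mb of chromosome 1, where the wild-type library held 5767991 pairs and the knockout library 4412861. Values given for chromosome 1 are those of this part. Intervals are 95% intervals throughout and reflect only the counting of pairs.

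Mammalian chromosomes fold into stretches, called topological domains, in which positions touch each other more often than they touch the neighbouring stretch. Loops pulled by cohesin and stopped at bound CTCF, an insulator protein that reads a directional DNA motif, are known to set many of their edges. *Sox17* encodes a transcription factor of the HMG-box family that directs endoderm formation and is kept low in pluripotent cells, and it is surrounded by a long stretch with few genes. *Rp1*, toward lower coordinates, encodes a microtubule-binding protein of photoreceptors. Toward higher coordinates lie genes that most cells use, *Mrpl15* (a protein of the mitochondrial ribosome), *Lypla1* (an acyl-protein thioesterase) and *Tcea1* (the transcription elongation factor TFIIS).

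On GRCm38, *Rp1* (ENSMUSG00000025900.12) runs on the minus strand at chr1:3999557-4409241, *Sox17* (ENSMUSG00000025902.13) on the minus strand at chr1:4490931-4497354, and *Mrpl15* (ENSMUSG00000033845.13) on the minus strand at chr1:4773206-4785739. *Lypla1* (ENSMUSG00000025903.14) runs on the plus strand at chr1:4807788-4848410 and *Tcea1* (ENSMUSG00000033813.15) on the plus strand at chr1:4857814-4897909. In the map summed over both libraries, 4 insulation minima lay in the stretch. The minimum on the lower side of *Sox17* was the bin chr1:4350001-4375000, which lies inside the gene body of *Rp1*, 134.9 kb from the *Sox17* transcription start, and is called the *Sox17* boundary here. The minimum on the other side was the bin chr1:4750001-4775000, 265.1 kb from the *Sox17* start, which takes in the 3′ end of *Mrpl15*. The 400 kb between their centres are called the *Sox17* domain, and hold the promoters of *Rp1* and *Sox17*. The promoters of *Mrpl15*, *Lypla1* and *Tcea1* lie just beyond its upper edge. The other minima were the bins chr1:3650001-3675000, in *Xkr4*, and chr1:5100001-5125000, in *Atp6v1h*.

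The DNA at these edges was read for the core CTCF motif (CCA, any pair of bases, AG, any pair of bases, GGCA) on both strands, and the matches that bear on the edges are shown with the motif in capitals and 6 flanking bases on either side in lower case, each read 5′ to 3′ on the strand of its match from the RefSeq sequence of GRCm38. The boundary bin and the bin below it held no match to this form (0 in both), and the bin above it held 1, in an intron of *Rp1*. The bin of the upper edge held 2, neither inside a gene. A further match in *Rp1*, below the boundary, is shown for its likeness in letters to the first and the second.
*Rp1* intron, above the boundary, chr1:4382991-4383015, minus strand: aaaaggCCACCAGAGGGCActgtat
Upper edge, below *Mrpl15*, chr1:4770053-4770077, plus strand: atttggCCACCAGGGGGCAgtcttg
Upper edge, below *Mrpl15*, chr1:4758204-4758228, minus strand: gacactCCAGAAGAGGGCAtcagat
*Rp1* intron, below the boundary, chr1:4228323-4228347, minus strand: atctttCCACTAGGGGGCAttgatg
Of all 25 kb bins of the part of chromosome 1 analysed, 41.8% held a match, and of the bins at insulation minima 53.6% did, so a match at an edge is a common event at this window size. Over windows of 3 bins, as the boundary bin and its neighbours are, 74.5% of all windows and 82.9% of those at minima held one. The match nearest the lower edge was on the minus strand, and the upper edge had a match on either strand. The stretch held 40 matches, 15 on the plus and 25 on the minus strand, and 5 of them lay in exons. Of the 40, 17 lay between 4.7 and 4.95 Mb, where *Mrpl15*, *Lypla1* and *Tcea1* are, and 12 of the 40, the sequence at chr1:4758204-4758228 among them, carried the same letters from the motif through the flank that follows it. A match of letters is not a bound site. Only this form of the motif was searched, so a bin without a match may still hold a CTCF site. No binding data were used here.

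Insulation was scored for each 25 kb bin as the mean corrected contact in a 250 kb square that spans the bin, on a log2 scale over the mean of chromosome 1, so that a low score marks a position that few contacts cross. At the *Sox17* boundary the score was −0.52 in the wild-type library, from 995 pairs in the square, and −0.45 in the knockout library, from 831 pairs. The knockout score was higher by 0.06, with a counting interval of −0.07 to 0.20 that includes no difference. The upper edge near *Mrpl15* scored −0.20 in wild-type and −0.23 in knockout, a difference of −0.03 (−0.15 to 0.08). The edge near *Xkr4* differed by 0.01 (−0.11 to 0.13) and the edge near *Atp6v1h* by 0.05 (−0.09 to 0.18). Near *Xkr4* the libraries did not share a minimum, which was the bin at 3.65 Mb in knockout and the bin at 3.75 Mb in wild-type, where the scores were 0.06 in wild-type and 0.23 in knockout. The lower edge of the *Sox17* domain was thus the deepest of the 4 minima in both libraries, and at none of the 4 minima of the summed map did the libraries differ by more than the counting interval. By 0.1 or more, the knockout was higher at 0 of the 4, against 13.3% of the 181 minima of chromosome 1, and lower at 0, against 11.6%. The rise at the *Sox17* boundary ranked 47 of 181. These counts hold for this bin and square. The difference at the *Sox17* boundary was 0.16 with 50 kb bins and 0.13 with a 500 kb square, and that near *Atp6v1h* was 0.32 with a 150 kb square.

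The position had been picked on a coarser map, with 100 kb bins, a 500 kb square and pairs at least 20 kb apart. There the bin from 4.3 Mb scored −0.49 in wild-type and −0.30 in knockout, and the rise of 0.19 was the highest of 99 minima. The next minima by rise, elsewhere on the chromosome, stood at 0.17 and 0.15. On the 25 kb map the larger differences lay beside the minimum of the summed map. The bin from 4.375 Mb, the lowest in the wild-type library alone, scored −0.53 in wild-type and −0.38 in knockout. In the bins that start at 4.425, 4.45 and 4.475 Mb, between the promoter of *Rp1* and the start of *Sox17*, the wild-type scores were −0.38, −0.27 and −0.14 and the knockout scores −0.19, −0.07 and 0.01. The last of these bins holds the *Sox17* start. Inside the domain the order turned. At 4.6 Mb, the interior peak of the wild-type and of the summed map, the wild-type score was 0.40 and the knockout score 0.24, and at 4.625 and 4.65 Mb the wild-type scores were 0.36 and 0.27 against 0.25 and 0.16. The knockout library had its own peak 1 bin lower, at 4.575 Mb, with 0.27. From the boundary to the bin at 4.6 Mb the score climbed by 0.92 in wild-type and by 0.69 in knockout, while on the other flank of the boundary, within *Rp1* and beyond it, the climb was 0.88 and 0.85.

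**Figure D1:**
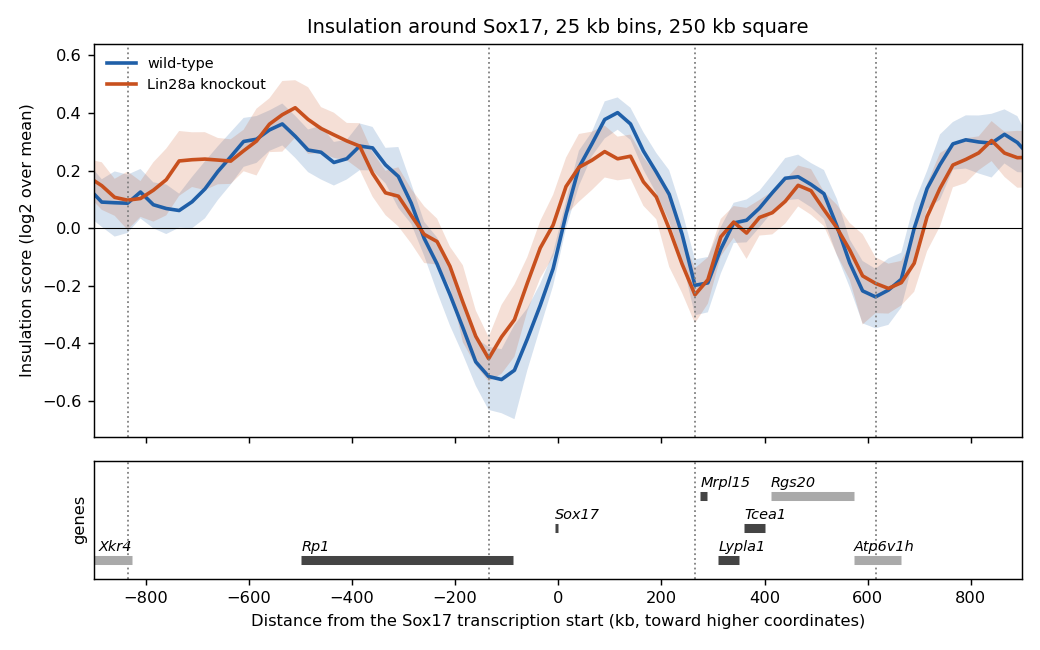
Insulation score (log2 over the mean of chromosome 1, vertical axis) in 25 kb bins against the distance from the *Sox17* transcription start in kb, for the wild-type (blue) and *Lin28a* knockout (orange) library, with genes drawn to scale underneath, members dark. Shaded bands span random equal parts of each library over 20 splits and dotted lines mark the 4 minima of the summed map. The knockout line lies above the wild-type line on the *Sox17* flank of the boundary and below it at the wild-type peak inside the domain, 0.24 against 0.40.

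Random equal parts of each library gave a measure of counting noise. Each library was split at random into a pair of equal parts 20 times, and the splits reuse the same pairs, so they are not independent of each other. At the *Sox17* boundary the wild-type parts ranged from −0.63 to −0.41 and the knockout parts from −0.53 to −0.38, and both knockout parts lay above both wild-type parts in 10 of the 20 splits. Of the 72 bins of the stretch, 4 had both knockout parts above both wild-type parts in all 20 splits, against 3.63% of all bins, and 3 had both below, against 4.71%. The bins above were those at 3.75, 4.425, 4.45 and 4.475 Mb, and the bins below were those at 4.6, 4.625 and 4.65 Mb. Neighbouring bins share most of their square, so each run of 3 is close to 1 observation. In the difference itself, the knockout was higher by 0.1 or more in 10 of the 72 bins, where 11% of all bins were, and lower by as much in 7, where 11.9% were. Since these values chose the position, nothing is read from the counts. The place of the minimum was set by the data to within 1 or 2 bins. The lowest bin was that at 4.375 Mb in 25 and that at 4.35 Mb in 11 of 40 wild-type parts, and that at 4.35 Mb in 38 of 40 knockout parts.

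Counts of pairs gave the same comparison without a balanced map. Pairs 25 to 500 kb apart with 1 end on either side of the *Sox17* boundary were divided by the number expected from all pairs of chromosome 1 at equal distance, which makes the value linear with 1 as the average. The wild-type library had 1901 such pairs, an observed over expected of 0.927 (0.886 to 0.970), and the knockout library had 1637 pairs and 1.01 (0.962 to 1.06). By these counts, contacts across the boundary were below the average of chromosome 1 in wild-type and near it in knockout. The counts are not corrected for the coverage of bins. On the balanced map the boundary scored −0.52 in wild-type and −0.45 in knockout, below the mean in both libraries. The ratio of the counts, knockout over wild-type, was 1.09 (1.02 to 1.16). The position was chosen for a rise in such contacts in these same libraries. The ratio, its interval and the splits below therefore describe that choice again and are no separate check of it. The ratio was 0.957 (0.903 to 1.01) at the edge near *Mrpl15*, 0.996 at the edge near *Xkr4* and 1.04 at the edge near *Atp6v1h*. None of the 4 reached 1.1 (0 of 4, against 6.08% of 181 minima), and 0 of 4 were at 0.909 or less, against 6.63%. Over all minima the median was 1.01 and the range 0.846 to 1.18, and the *Sox17* boundary ranked 13 of 181 from the top. The parts of each library did not overlap at this boundary in 20 of 20 splits (0.888 to 0.967 in wild-type, 0.947 to 1.07 in knockout, as ranges over all splits), which also held for 6.63% of all minima in this direction and for 7.18% in the other.

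**Figure D2:**
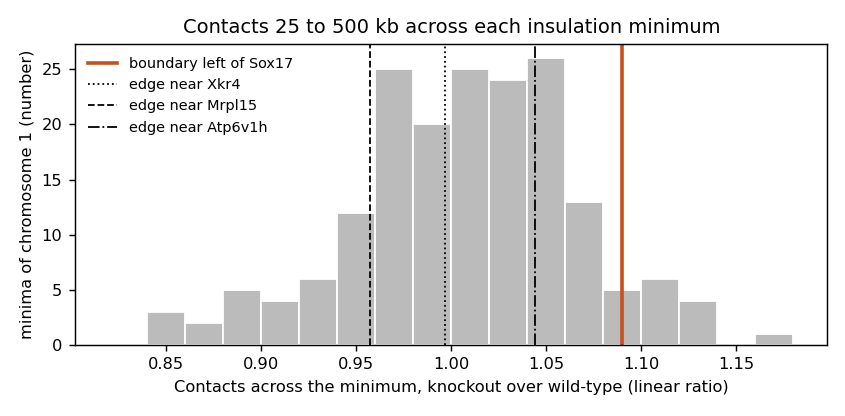
Number of insulation minima of chromosome 1 (vertical axis) by the linear ratio of contacts across them, knockout over wild-type (horizontal axis), for pairs 25 to 500 kb apart at 181 minima. The orange line is the *Sox17* boundary at 1.09, within the range of the other minima, and the black lines are the other 3 minima of the stretch, between 0.957 and 1.04.

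The pairs across the *Sox17* boundary were next divided by distance. Ratios of knockout over wild-type were 1.02 for pairs 25 to 100 kb apart and 0.969 for 100 to 200 kb, both with intervals that include 1. They were 1.15 (0.994 to 1.33) for 200 to 300 kb, 1.12 (1.02 to 1.23) for 300 to 500 kb and 1.06 (0.996 to 1.12) for 500 kb to 1 Mb. Of the classes at this boundary, only that of 300 to 500 kb had an interval above 1, and whether the classes differ from each other was not tested. At the edge near *Mrpl15* the contacts of 200 to 300 kb went the other way, with 668 wild-type pairs and 427 knockout pairs and a ratio of 0.815 (0.720 to 0.922). At the edge near *Xkr4* the ratio was 1.16 (1.0006 to 1.35) for 100 to 200 kb and 0.937 (0.890 to 0.987) for 500 kb to 1 Mb. At the edge near *Atp6v1h* the shortest class, 25 to 100 kb, held 125 and 155 pairs with a ratio of 1.60 (1.26 to 2.04). These intervals are not adjusted for the number of distance classes looked at, nor, at the *Sox17* boundary, for the choice of the position.

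The contacts across the boundary were then taken apart by position. Along the *Sox17* domain, windows of 50 kb were paired with the 500 kb below the boundary. The window around the *Sox17* start, from 4.4625 to 4.5125 Mb, had the lowest value of the 8 windows in wild-type, 0.685 (0.604 to 0.775) from 254 pairs, and 0.803 (0.704 to 0.912) from 236 pairs in knockout. Its ratio was 1.17 (0.977 to 1.40), and the intervals of the libraries overlap. The largest ratios were farther up the domain, toward *Mrpl15*, where no protein-coding gene of those named here starts. There the window from 4.6125 to 4.6625 Mb had 0.894 (0.782 to 1.02) with 231 pairs in wild-type and 1.26 (1.11 to 1.42) with 263 pairs in knockout, a ratio of 1.41 (1.18 to 1.69), although the knockout library had fewer pairs in all. The window from 4.6625 to 4.7125 Mb had 1.05 with 245 pairs and 1.37 with 260, a ratio of 1.30 (1.09 to 1.56). The window at the upper edge, from 4.7125 to 4.7625 Mb, had the highest value in both libraries, 1.50 and 1.55, with a ratio of 1.03 (0.875 to 1.22). The other 4 windows had ratios between 0.958 and 1.08 with intervals that include 1. On the *Rp1* side, windows of 100 kb paired with the whole *Sox17* domain had ratios of 1.13 (1.02 to 1.25) for the window next to the boundary and 1.14 (1.01 to 1.29) for the one beyond it, and 1.08, 1.04 and 1.08 farther out, with intervals that include 1. These windows were laid out after the difference was known and carry no adjustment for their number. Their counts are not corrected for the coverage of bins. Whether coverage sets the order of windows within a library was not tested.

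Within the *Sox17* domain, pairs with both ends inside it numbered 3640 in wild-type, at 1.58 (1.53 to 1.63) over expected, and 2713 in knockout, at 1.52 (1.46 to 1.57). The ratio was 0.960 (0.913 to 1.01), with an interval that includes 1, and the parts of the libraries did not overlap in 16 of 20 splits. The splits were not counted for other stretches, so nothing is read from that number. The counts of pairs are not corrected for the coverage of bins. By them the domain had the highest value of the stretches between minima in both libraries. The stretch below it, which holds most of *Rp1* and no promoter of a member, had 1.20 in wild-type and 1.24 in knockout, and the stretch above it, with *Mrpl15*, *Lypla1* and *Tcea1*, had 1.39 and 1.41. On the balanced map the highest insulation score in wild-type was 0.36 in the stretch below and 0.40 in the domain. In knockout the order was reversed, with 0.42 in the stretch below and 0.27 in the domain. Counts within and between stretches took all pairs at least 25 kb apart, without the limit of 500 kb used across the boundary. Contacts between the *Sox17* domain and the stretch below were 0.973 (0.939 to 1.01) from 3048 pairs in wild-type and 1.05 (1.01 to 1.09) from 2653 pairs in knockout, a ratio of 1.08 (1.03 to 1.14). That ratio counts again pairs across the boundary, where the position was chosen. Contacts with the stretch above were 1.34 and 1.31, a ratio of 0.972 (0.920 to 1.03). By these uncorrected counts, the *Sox17* domain touched the gene-rich stretch above it more than the *Rp1* stretch below it in both libraries. The corner of the domain, 100 kb above the boundary with the 100 kb around the upper edge, had 2.16 (1.93 to 2.41) from 310 pairs in wild-type and 1.99 (1.74 to 2.27) from 227 pairs in knockout, and its ratio of 0.923 (0.774 to 1.10) includes 1. The equal window below the boundary had 1.44 (1.23 to 1.68) in wild-type and 1.48 (1.25 to 1.75) in knockout with the same upper edge. The corner was thus higher than that window in both libraries. In knockout their intervals overlap, and the counts are not corrected for coverage.

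**Figure D3:**
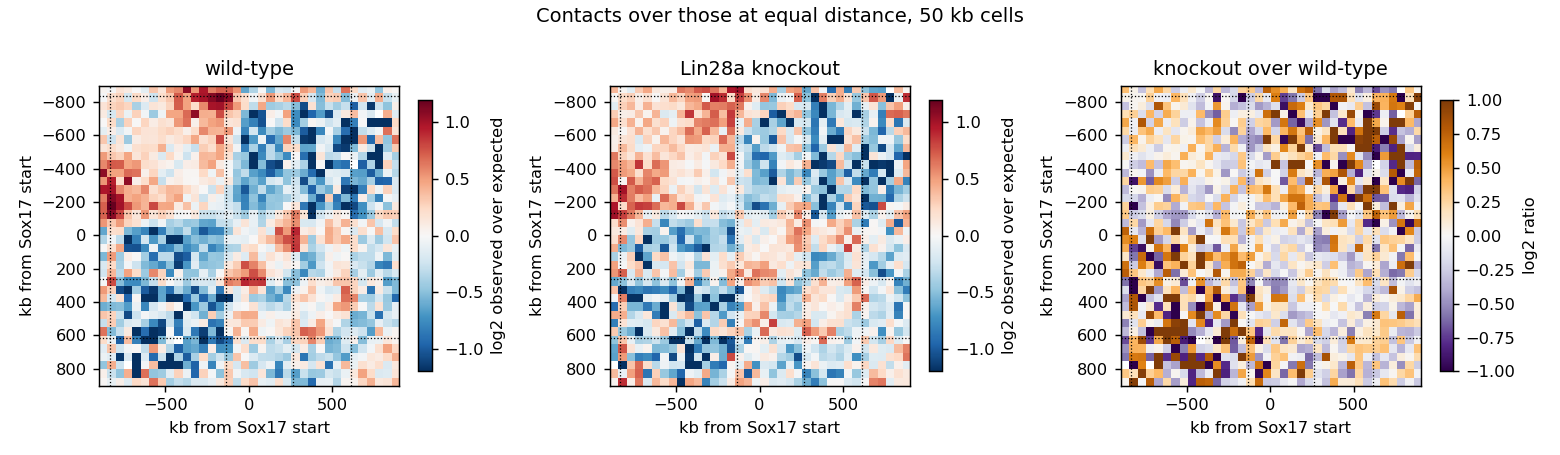
Observed over expected contacts in 50 kb cells on a log2 colour scale for wild-type (left), *Lin28a* knockout (middle) and their log2 ratio (right), both axes in kb from the *Sox17* start, with the 4 minima as dotted lines. Both libraries show the block of the *Sox17* domain between −135 and 265 kb with its corner (2.16 and 1.99 over expected, linear), and the cells far from the diagonal of the ratio map rest on few pairs and scatter in both directions.

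Promoter contacts were counted for 50 kb around each transcription start with partners 25 to 500 kb away on either side. They are given as observed over expected on a linear scale, again without a correction for coverage. The *Sox17* promoter had 890 wild-type pairs and 632 knockout pairs with partners at higher coordinates, at 1.74 (1.62 to 1.85) and 1.58 (1.45 to 1.70). With partners at lower coordinates, toward the boundary and across it, it had 491 and 386 pairs, at 0.958 (0.875 to 1.05) and 0.962 (0.868 to 1.06). *Sox17* thus faced its own domain and *Mrpl15* in both libraries, by 0.86 on the log2 scale (higher over lower side) in wild-type and by 0.71 in knockout. Its contacts with the higher side had a ratio of knockout over wild-type of 0.907 (0.818 to 1.01), and those with the lower side one of 1.00 (0.876 to 1.15). The parts did not overlap in 16 of 20 splits for the higher side and in 1 of 20 for the lower side. The same count over all promoters was not made, so nothing is read from these numbers.

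The *Rp1* promoter, 88.1 kb from that of *Sox17* and inside the same domain, also faced upward. It had 718 and 592 pairs at higher coordinates, 1.40 (1.30 to 1.51) in wild-type and 1.48 (1.36 to 1.60) in knockout, and 545 and 408 pairs at lower coordinates, 1.06 and 1.02. Its ratios were 1.05 (0.943 to 1.18) and 0.956 (0.839 to 1.09), and both intervals include 1. In the smaller sequencing runs alone the ratio of the higher side was 0.535 (0.298 to 0.910), in the other direction.

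*Mrpl15*, at the upper edge, showed the largest shift of the members between its sides. Its promoter had 819 wild-type and 569 knockout pairs at lower coordinates, most of the way within the *Sox17* domain, at 1.60 (1.49 to 1.71) and 1.42 (1.30 to 1.54). At higher coordinates, toward *Lypla1* and *Tcea1*, it had 769 and 660 pairs at 1.50 (1.40 to 1.61) and 1.64 (1.52 to 1.78). The wild-type library was higher on the *Sox17* side, with a ratio of 0.887 (0.796 to 0.989), and the knockout library on the other side, with a ratio of 1.096 (0.986 to 1.22), and on both sides the intervals of the libraries overlap. The interval of the lower-side ratio came to include 1 in 4 of 8 alternatives, among them the larger sequencing runs alone (0.918, 0.821 to 1.03), and the smaller runs alone gave 0.552 (0.318 to 0.912). The balance of higher over lower side went from −0.09 to 0.21 on the log2 scale. This shift of 0.30 lay inside the range of all 508 promoters, −0.65 to 0.52. The parts did not overlap in 19 of 20 splits for the lower side and in 16 of 20 for the higher. For *Rp1*, *Lypla1* and *Tcea1* they did not overlap in 8, 3 and 10 of 20 on the lower side. On the higher side the numbers were 11, 0 and 7. The same count over all promoters was not made, so nothing is read from these numbers.

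*Lypla1* and *Tcea1*, the next genes up, lie farther from the domain. *Lypla1* had 1.10 and 1.08 on its lower side and 1.37 and 1.39 on its higher side, with ratios of 0.980 and 1.01. *Tcea1* had 1.31 (1.21 to 1.41) and 1.42 (1.30 to 1.54) on its lower side and 1.22 and 1.28 on its higher side, with ratios of 1.08 (0.967 to 1.21) and 1.04. The intervals of all 4 ratios include 1. The windows of *Mrpl15* and *Lypla1* overlap, so their values share pairs. The annotation also has a protein-coding model, *Gm37988*, at chr1:4807892-4886770 on the plus strand, which overlaps *Lypla1* and *Tcea1* and has the same window values as *Lypla1*.

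**Figure D4:**
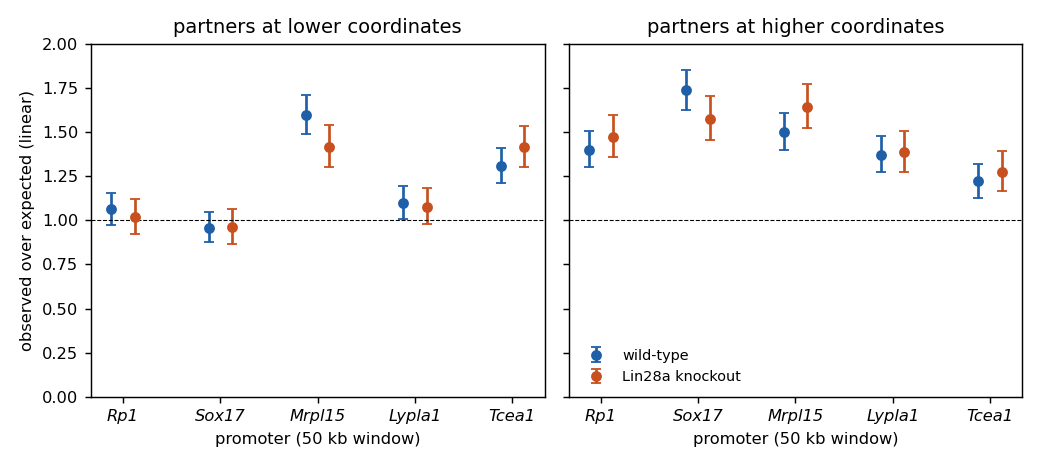
Contacts of the promoters of the 5 members (horizontal axis) with partners at lower (left) and higher (right) coordinates, 25 to 500 kb away, as linear observed over expected (vertical axis) with 95% Poisson intervals, wild-type blue and *Lin28a* knockout orange. *Sox17* is at 1.74 and 1.58 on its higher side and near 1 on its lower side, and *Mrpl15* is at 1.60 and 1.42 on its lower side and at 1.50 and 1.64 on its higher side.

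Over the 5 members, 0 had a ratio of 1.1 or more on the lower side, where 12% of the 508 promoters did, and 1 (*Mrpl15*) had 0.909 or less, where 10.4% did. On the higher side 0 had 1.1 or more, against 8.27%, with *Mrpl15* just under it at 1.096, and 1 (*Sox17*) had 0.909 or less, against 10.8%. These counts rest on the 50 kb window. On the lower side, windows of 20 and 100 kb gave 1.22 (1.02 to 1.46) and 1.11 (1.02 to 1.22) for *Tcea1*, 1.15 (0.947 to 1.40) and 0.888 (0.814 to 0.969) for *Lypla1*, and 0.919 and 0.923 for *Mrpl15*, which then missed 0.909. On the higher side they gave 0.926 and 0.893 for *Sox17* and 1.15 and 1.01 for *Mrpl15*. The median ratio of the members was 0.980 on the lower and 1.04 on the higher side, and that of all 508 promoters was 1.00 on either. The ratios of all promoters ran from 0.718 to 1.29 and from 0.694 to 1.32, so every member lay within the range. Among the neighbours, the promoter of *Xkr4* had ratios of 1.18 (1.04 to 1.33) and 1.06, the shared start of *Rgs20* and *Atp6v1h* 0.927 and 1.03, and that of *Oprk1* 0.995 and 0.990.

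The promoters also met each other. The pair of windows around *Sox17* and *Mrpl15*, whose starts lie 288.4 kb apart, had 96 pairs in wild-type, 2.31 over expected, and 53 in knockout, 1.63 over expected. That was the highest value of the 8 promoter pairs in wild-type, and its ratio was 0.705 (0.494 to 0.996). *Sox17* and *Tcea1*, 360.5 kb apart, went the other way, with 47 and 49 pairs, 1.36 and 1.78 over expected, and a ratio of 1.31 (0.858 to 1.99). *Sox17* and *Lypla1* had 61 and 42 pairs with a ratio of 0.878 (0.578 to 1.32), and *Rp1* and *Sox17* had 129 and 84 with a ratio of 0.840 (0.631 to 1.11). *Rp1* and *Mrpl15*, which lie near opposite edges of the domain, had 1.89 and 1.87 over expected, and *Mrpl15* and *Tcea1* 1.88 and 2.01. With 8 pairs and no adjustment, 1 interval that ends at 0.996 carries little weight.

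At 25 kb, the partner bins with the highest observed over expected in the summed map were, for *Sox17*, the bin of the upper edge at 4.75 Mb, with 38 wild-type pairs at 2.09 and 22 knockout pairs at 1.65, and the bin at 4.7 Mb, with 31 pairs at 1.68 and 23 at 1.69. The ratio at 4.75 Mb was 0.793 (0.447 to 1.38), so a difference was not detectable at this depth. *Rp1* had the same leading partner, the bin at 4.75 Mb, with 34 pairs at 2.20 and 18 at 1.51. *Mrpl15* met the middle of the *Sox17* domain, the bin at 4.55 Mb, with 18 and 12 pairs at 2.06 and 1.64. The leading partner of both *Lypla1* and *Tcea1* in the summed map was the bin at 5.075 Mb inside *Atp6v1h*, short of the next minimum, with 11 and 10 pairs at 1.50 and 1.68 for *Lypla1* and 21 and 11 pairs at 2.36 and 1.46 for *Tcea1*. The bins at 4.55 and 5.075 Mb were poorly covered, with 1006 and 936 pairs in all in wild-type and 831 and 780 in knockout. The bins just below them held 2251 and 1830 in wild-type and 1673 and 1477 in knockout. Whether coverage bears on their place as leading partners was not tested. The order of partners was that of the summed map and did not hold in each library. In knockout the bin at 3.825 Mb, at 1.60, stood above that at 4.75 Mb for *Rp1*. For *Sox17* the knockout bins at 4.7, 4.725, 4.875 and 4.925 Mb, at 1.69, 1.803, 1.67 and 1.91, stood above that at 4.75 Mb. Those at 4.875 and 4.925 Mb lie beyond the upper edge of the domain. Also in knockout, the bin at 4.85 Mb, at 1.70, stood above that at 4.55 Mb for *Mrpl15*, and the bin at 4.775 Mb, at 1.70, above that at 5.075 Mb for *Tcea1*. In wild-type the bin at 5.05 Mb, at 1.90 from 29 pairs, stood above that at 5.075 Mb for *Lypla1*.

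**Figure D5:**
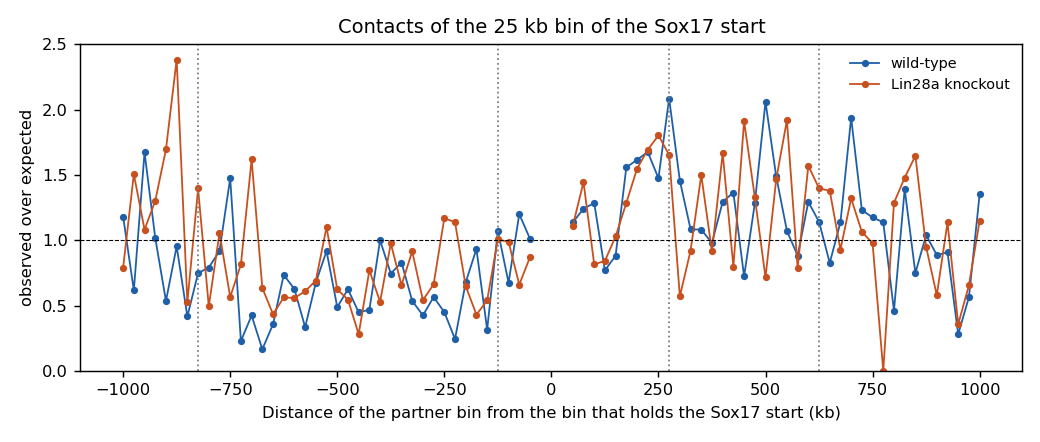
Observed over expected contacts (linear, vertical axis) of the 25 kb bin that holds the *Sox17* start with partner bins up to 1 Mb away (horizontal axis, kb), wild-type blue and *Lin28a* knockout orange, dotted lines at the insulation minima. The rise toward the upper edge, 2.09 and 1.65 at 275 kb, is present in both libraries, and points far from 0 rest on few pairs.

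In both libraries the compartment track changed sign near the upper edge of the *Sox17* domain. Its sign was set by gene count (correlation of 0.54 in the summed track), and the activity of genes was not measured. The compartment track (the leading eigenvector of the contact correlation at 250 kb, in SD units, positive where genes are dense) stood at −0.93 in wild-type and −0.78 in knockout in the bin from 4.25 Mb, which holds the boundary and the starts of *Rp1* and *Sox17*. It was −0.37 and −0.34 in the bin from 4.5 Mb and 0.56 and 0.37 in the bin from 4.75 Mb, which holds *Mrpl15*, *Lypla1* and *Tcea1*. Below the boundary it was −1.08 and −1.05 from 4 Mb, and above the stretch of these genes −0.14 and −0.06 from 5 Mb. The sign was equal in the libraries in all of these bins. It changed near the upper edge of the domain and not at the *Sox17* boundary, so *Sox17* lay on the negative and *Mrpl15* on the positive side in both.

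The pairs of the *Sox17* domain were last divided into near and far. Trans pairs, whose ends lie on different chromosomes, made up 32.6% (32.1 to 33.0) of pairs of the domain in wild-type and 32.4% (31.9 to 32.9) in knockout. For the whole part of chromosome 1 analysed the share was 40.1% in both. A pair on chromosome 1 was counted for the domain if either end lay in it, but only once for the whole part. Shares of the domain and of the whole part, here and below, are thus not comparable, and only the libraries are compared. Of the pairs on chromosome 1 at least 20 kb apart, those reaching 10 Mb or more were 32.5% (31.9 to 33.1) of the domain in wild-type and 28.1% (27.5 to 28.8) in knockout. Over the whole part analysed this share was 37.4% and 34.1%, so the libraries also differed in this share over that part. The ratios above were taken at equal distance in each library for that reason.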

How the data were processed

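The deposited files list 1 Hi-C read pair per line, with positions of both ends on mm10 (GRCm38), restriction fragments and a mapping quality score. In the lists deposited by the authors this score ran from 11 to 42, and 0 cis pairs of the lists analysed here shared both positions and strands with another. The submitters' processing notes name CASAVA 1.8, Bowtie2 and HiC-Pro without role or order. The study's methods do not describe the assay, and the pooling of replicates is not given in the sources used here. Fragment numbers matched counts of GATC to within 1 for 99.7% of 200000 ends a library. Read names showed 2 sequencing runs a library (5262851 and 505140 pairs in wild-type, 4224769 and 188092 in knockout).

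Pairs at least 5 kb apart were binned at 25 kb, 47 of 3510 bins, whose totals fell under 20% of the median, were dropped, and maps were balanced by iterative correction. Minima needed a prominence of 0.1. Expected counts came from pairs at equal distance in steps of 2.5 kb, without a correction for the coverage of each bin. The values of single partner bins and of the map figure came from the balanced maps. Counts have exact Poisson intervals, ratios the interval of the exact binomial split, and shares Clopper-Pearson intervals. Read pairs without molecular identifiers are not independent molecules. Genes were taken from GENCODE release M21. Since the sources used here do not say whether the runs are the replicates of the labels, each group was taken as 1 library and no test was made, and values of each run are given with the alternatives. Python 3.11.15, numpy 2.4.6, scipy 1.17.1, pandas 2.3.3 and matplotlib 3.10.9 were used, and the steps were tested on simulated data.

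The members, gene lists and windows were chosen with earlier results of these data known. The genes named were the members, their protein-coding neighbours, every minimum of the stretch, and for each member the up to 2 partner bins with the highest observed over expected among those with at least 20 pairs in the summed map. Alternatives changed bin, square, balancing, distance, mapping quality, sequencing run, depth, prominence and promoter window. The 100 kb bins with a 500 kb square and the 1 Mb square were chosen after seeing the data.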

Additional observations from a re-analysis of the deposited data

How the results depend on the processing

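The difference at the *Sox17* boundary, whose direction the choice of the position had set, ranged over 12 alternatives from 0.01 with a 150 kb square to 0.38 with the smaller sequencing runs alone, and was 0.04 with the larger runs alone and 0.18 with the bins and square that chose the position (100 kb and 500 kb) but pairs from 5 kb. With 100 kb bins, for which the square was 300 kb, the difference was 0.25. The edge near *Atp6v1h* differed by 0.32 with the 150 kb square and by 0.24 with the smaller runs. The *Sox17* promoter's lower side had a ratio of 1.15 with the smaller runs, and the higher sides of *Rp1*, *Tcea1* and *Lypla1* had 0.535, 0.709 and 1.31. The cause of these shifts was not tested. The contacts across the boundary, which share pairs with the map that chose the position, had ratios of 1.06 to 1.16 over 6 alternatives. The interval included 1 with distances up to 300 kb (1.06, 0.959 to 1.16) and with the smaller runs (1.16, 0.883 to 1.50). Within the domain the ratio was 0.930 to 0.990, and scaled to all cis pairs (0.930, 0.885 to 0.978) the interval left out 1. The higher side of *Sox17* (0.861 to 0.945) and the lower side of *Mrpl15* (0.552 to 0.923) had ratios below 1 under 8 of 8 alternatives each, but their intervals varied. For *Sox17* the interval left out 1 when scaled to all cis pairs (0.886, 0.799 to 0.982), up to 300 kb (0.861, 0.764 to 0.970) and with the 100 kb window (0.893, 0.829 to 0.963). For *Mrpl15* it came to include 1 up to 1 Mb (0.910, 0.825 to 1.002), at mapping quality of 30 or more (0.894, 0.798 to 1.0003), with the larger runs (0.918, 0.821 to 1.03) and with the 20 kb window (0.919, 0.759 to 1.11), and its lowest ratio, 0.552, came from the smaller runs. The edge count was 3 to 5 in wild-type and 3 to 4 in knockout. The 1 Mb square gave no value near *Xkr4*. No paired analysis was possible because each group has 1 library and the pairs name no replicate. Single 25 kb partner bins and promoter pairs rest on few pairs, and the spread between cultures or clones was not measured.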
